A study of Mus musculus with 12 samples.

Results

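The genes described here were 10 immediate early and activity genes, chosen by name: Fos, Fosb, Jun, Junb, Egr1, Egr2, Arc, Npas4, Nr4a1 and Bdnf. They are 10 of the 21938 protein-coding genes in the GENCODE vM21 basic annotation of mm10. For each gene, peaks were read in a window from 5 kb upstream of the transcription start site (TSS, the 5′ end of the gene record) to the gene end, and H3K27ac peaks were followed to 50 kb beyond the gene on both sides. Cerebral cortex of Gad67-GFP heterozygote mouse pups, which carry GFP in cells that use the gene for the GABA-synthesizing enzyme GAD67, was dissected at postnatal day 2 (mixed background outcrossed to CD-1), with pups of several litters pooled in each sample. The tissue was dissociated with papain and sorted by flow cytometry into GFP+ cells, enriched for immature cortical interneurons (CINs), and GFP- cells (non-CINs), which hold all other cortical cells. Native chromatin immunoprecipitation and sequencing (ChIP-seq) was done for H3K27ac, a mark of active promoters and enhancers, and H3K27me3, a mark of Polycomb-repressed or poised chromatin, in 2 replicates of each population. All samples went through the same dissociation and sort, and no undissociated sample was included. Any effect of that handling on the marks at these genes was not tested. No sample was deliberately stimulated or silenced, and the 4 input samples entered only through the peak calling.

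Immediate early genes are switched on within minutes of a stimulus, without new protein synthesis, by transcription factors that already sit in the cell, such as SRF and CREB. Many encode transcription factors, which then act on later target genes, and in neurons calcium entry through synaptic receptors and channels is a main trigger. Other cells, glia and microglia among them, also use Fos, Jun and Egr genes when stimulated, whereas Npas4 and Arc are known mostly from neurons.

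Each of the 8 ChIP lists held between 36662 and 62505 peaks, covering 34.5 to 56.3 Mb. The read number behind each list was not used, and a place without a peak is one where the peak caller made no call. Of 7 GABAergic marker genes, 6 had more H3K27ac coverage in both CIN lists than in both non-CIN lists, the sums over the 7 genes being 51380 and 42235 bp in CINs versus 434 and 652 bp in non-CINs, and Lhx6 had no peak. The 5 projection neuron markers summed to 5139 and 2294 bp in CINs versus 4610 and 6211 bp in non-CINs. Of these, Neurod2 and Slc17a7 had no H3K27ac peak in any list, Emx1 had more coverage in both non-CIN lists, and Neurod6 and Tbr1 overlapped in coverage. The 3 astrocyte and radial glia markers summed to 44453 and 40535 bp in CINs and to 65856 and 65579 bp in non-CINs, and the 3 microglial markers to 13085 and 12833 bp in CINs and to 19619 and 15937 bp in non-CINs. Glial and microglial markers thus carried H3K27ac in both sorted populations, and their part in the results below was not tested. In such bulk samples, fewer cells of a type and less of a mark per cell cannot be told apart. With 2 replicates against 2, the smallest exact two-sided permutation p is 0.333, so differences are described only by whether both values of one population lay above both values of the other.

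Promoters of some of these genes are printed first. RefSeq promoter windows (GRCm38.p6), from 250 bases before to 50 bases after a start, were found for 8 of the 10 genes (all but Egr1 and Arc), 18 windows in all. Both strands were searched for the CArG box, which binds SRF, for the full cAMP response element (CRE) TGACGTCA, for its shorter core TGACG, which the full element also holds, for the AP-1 site TGANTCA, for the EGR sites GCGGGGGCG and GCGTGGGCG, and for the TATA box TATAAA. Capitals mark every match, read on either strand, and the 250 bases before the start are given 5′ to 3′ on the strand of the gene. Fos, Fosb and Junb are shown as promoters under H3K27ac in every list, Egr2 and Bdnf as starts with H3K27me3 within 1 kb in every list. For Egr2 and Bdnf, the start shown is the first listed by both RefSeq and GENCODE whose window held a TGACG core or a CArG box. Jun and Nr4a1 also had H3K27ac at the TSS in every list but are not printed, and the Jun window held no match. The other Bdnf windows held no TGACG core.

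Fos, chr12:85473640-85473889, plus strand: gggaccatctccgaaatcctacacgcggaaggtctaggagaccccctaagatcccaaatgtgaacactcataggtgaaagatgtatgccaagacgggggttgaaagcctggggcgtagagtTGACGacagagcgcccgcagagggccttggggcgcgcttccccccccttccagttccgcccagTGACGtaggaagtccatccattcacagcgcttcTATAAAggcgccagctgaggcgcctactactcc
Fosb, chr7:19310046-19310295, minus strand: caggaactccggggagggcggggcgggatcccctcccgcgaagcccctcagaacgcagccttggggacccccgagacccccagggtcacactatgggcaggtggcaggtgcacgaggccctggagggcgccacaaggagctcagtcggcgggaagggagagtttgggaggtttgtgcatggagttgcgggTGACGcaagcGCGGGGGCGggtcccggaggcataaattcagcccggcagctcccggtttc
Junb, chr8:84978749-84978998, minus strand: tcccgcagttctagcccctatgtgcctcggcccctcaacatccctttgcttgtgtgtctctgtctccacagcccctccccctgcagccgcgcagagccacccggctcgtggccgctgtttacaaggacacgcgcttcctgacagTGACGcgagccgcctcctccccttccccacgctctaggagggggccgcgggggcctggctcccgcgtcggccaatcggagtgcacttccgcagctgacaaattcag
Egr2, chr10:67537619-67537868, plus strand: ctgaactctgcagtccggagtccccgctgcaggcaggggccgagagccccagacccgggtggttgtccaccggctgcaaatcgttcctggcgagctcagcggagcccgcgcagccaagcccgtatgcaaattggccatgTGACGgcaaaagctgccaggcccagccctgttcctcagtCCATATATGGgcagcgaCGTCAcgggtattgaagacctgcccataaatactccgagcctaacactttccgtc
Bdnf, chr2:109692186-109692435, plus strand: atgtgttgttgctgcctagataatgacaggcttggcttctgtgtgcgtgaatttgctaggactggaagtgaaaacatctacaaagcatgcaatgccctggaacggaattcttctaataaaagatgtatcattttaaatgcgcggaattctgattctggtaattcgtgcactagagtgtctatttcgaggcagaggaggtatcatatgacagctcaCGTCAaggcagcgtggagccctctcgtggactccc

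In Fos, TGACG began 129 and 66 bases before the start and the TATA box 33 bases before it. In Egr2, the CArG box began 72 bases before this start, between CRE cores at 111 and 55 bases. The Fosb promoter held a CRE core at 60 bases and an EGR site at 50 bases, the Junb promoter a CRE core at 106 bases, and this Bdnf promoter a CRE core at 35 bases. The CRE core was present in 9 of the 18 windows, from 7 of the 8 genes, against 20.8% of all 32851 promoter windows in the table, but 3 of the 9 are overlapping Egr2 windows with the same cores. CArG boxes were found, among these 8 genes, only in Egr2, in 4 of its 5 windows, against 1.63% of all windows. Of these windows 3 overlap and share 1 box, and the other holds a separate box. The full CRE was found in none of the 18 windows and in 1.79% of all windows. AP-1 sites were in 1 window, of Bdnf, against 7.81%. The first EGR site was in 2 windows, of Fosb and Nr4a1, against 2.91%, and the second EGR site in none, against 0.612%. The TATA box letters were in 2 windows, of Fos and Junb, against 13.6%. In Junb they began at the start itself, outside the printed bases. These matches describe letters in the windows and no binding was measured.

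The Npas4 promoter is shown because it carried the one H3K27ac promoter peak found in a single population. The stretch below is the part of that CIN-only region that lies before the GENCODE start, and this stretch held none of the motifs searched. The RefSeq promoter window of Npas4, whose start lies further downstream at chr19:4989971, held CRE cores at 179 and 169 bases before that start.

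Npas4, chr19:4990317-4990442, minus strand: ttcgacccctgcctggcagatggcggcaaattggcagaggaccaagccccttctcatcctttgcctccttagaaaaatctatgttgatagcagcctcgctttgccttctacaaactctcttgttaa

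An H3K27ac peak lay within 1 kb of the TSS in all 4 H3K27ac lists for 7 genes, Fos, Fosb, Jun, Junb, Egr1, Arc and Nr4a1, against a background of 45.9% of all protein-coding genes. Within 250 bp of the TSS, and likewise with peaks under a −log10 q of 4 removed, it was 5 genes, without Arc and Nr4a1. Egr2, Npas4 and Bdnf were the other three. H3K27me3 lay within 1 kb of the TSS in all 4 lists of that mark for 3 genes, Junb, Egr2 and Bdnf, against 11.2% of all protein-coding genes. Jun and Arc had no H3K27me3 peak in their windows in any list. Ranked by the mean share of the window covered, among all genes with an H3K27ac peak, Junb was at percentile 99.8 in CINs and 99.5 in non-CINs, Jun at 99.6 and 99.4, and Fos at 98.7 and 98.8. Bdnf was at percentile 14.9 and 8.7 by the same measure. The windows ranged from 8189 bp for Jun to 57308 bp for Bdnf, so the 5 kb upstream part weighs more in short genes.

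**Figure D1:**
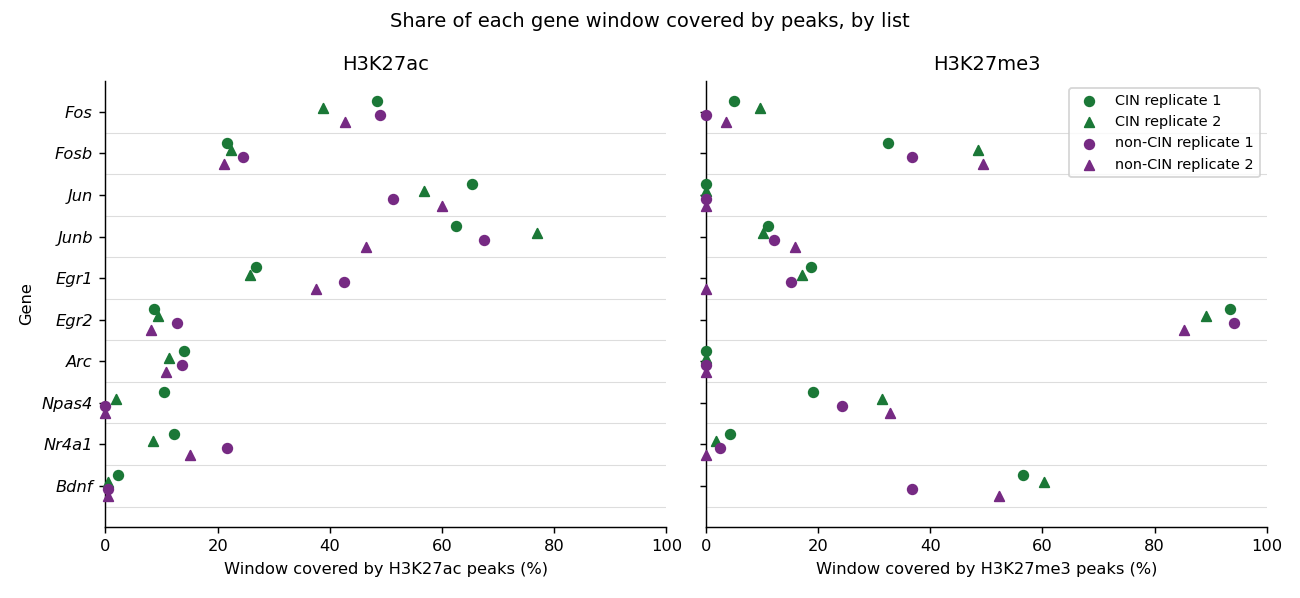
Share of each gene window covered by merged H3K27ac peaks (left) and H3K27me3 peaks (right), in percent, with 1 point for each of the 4 lists of a mark (circles replicate 1, triangles replicate 2; CINs green, non-CINs purple). By the mean of each population, Jun and Junb have the highest H3K27ac coverage and Egr2 and Bdnf the highest H3K27me3 coverage, with Fosb level with Bdnf in non-CIN replicate 1 (36.8%), and Npas4 has H3K27ac in CINs only.

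Between the populations, H3K27ac coverage of the window separated for 3 of the 10 genes. It was higher in both CIN lists for 1 gene, Npas4, against 17.8% of the 14672 protein-coding genes with an H3K27ac peak. It was higher in both non-CIN lists for 2 genes, Egr1 and Nr4a1, against 18.8% of the 14672 genes, so neither share stood far from its background. With the replicate number as a block, that is, with each CIN list set against the non-CIN list of the same replicate, Arc joined Npas4 (2 genes, against 28.9%) and Fos joined Egr1 and Nr4a1 (3 genes, against 29.7%). The fold enrichment of the highest peak, as a percentile among the peaks of its own list, was higher in both CIN lists for 2 genes, Egr2 and Npas4, against 20.8%. It was higher in both non-CIN lists for 0 genes, against 15.6%, and with the replicate block for 2 genes, Fos and Nr4a1, against 24.6%. The block left the 2 genes higher in CINs as they were, against 33.2%.

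For H3K27me3, 8 of the 10 genes had a peak in at least 1 list. Coverage was higher in both CIN lists for 3 of these 8 genes, Fos, Egr1 and Bdnf, against 7.48% of the 8941 protein-coding genes with an H3K27me3 peak. With the replicate block Nr4a1 joined these, giving 4 genes against 16.1%. Coverage was higher in both non-CIN lists for 1 gene, Junb, against 11.2% of the 8941 genes, and with the replicate block for 3 genes, Fosb, Junb and Npas4, against 25.4%. The top percentile was higher in both CIN lists for 2 genes, Fos and Nr4a1, against 9.62%, and in both non-CIN lists for 2 genes, Fosb and Junb, against 13.8%. With the replicate block, Fos and Nr4a1 were again the 2 genes higher in CINs, against 16.7%, and Egr2 joined Fosb and Junb, giving 3 genes against 24.1%. With peaks of a −log10 q under 4 removed, neither Fos nor Nr4a1 kept its higher percentile in CINs and Fos lost its higher coverage. Egr2 then gained higher coverage in CINs and a higher percentile in non-CINs. Among the marker genes, H3K27me3 coverage was also higher in both CIN lists at Neurod6, Emx1, Gfap, Olig1 and Olig2. It was higher in both non-CIN lists at Gad1 and Pdgfra. The part of other cell types in the H3K27me3 values of the 10 genes was not tested.

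**Figure D2:**
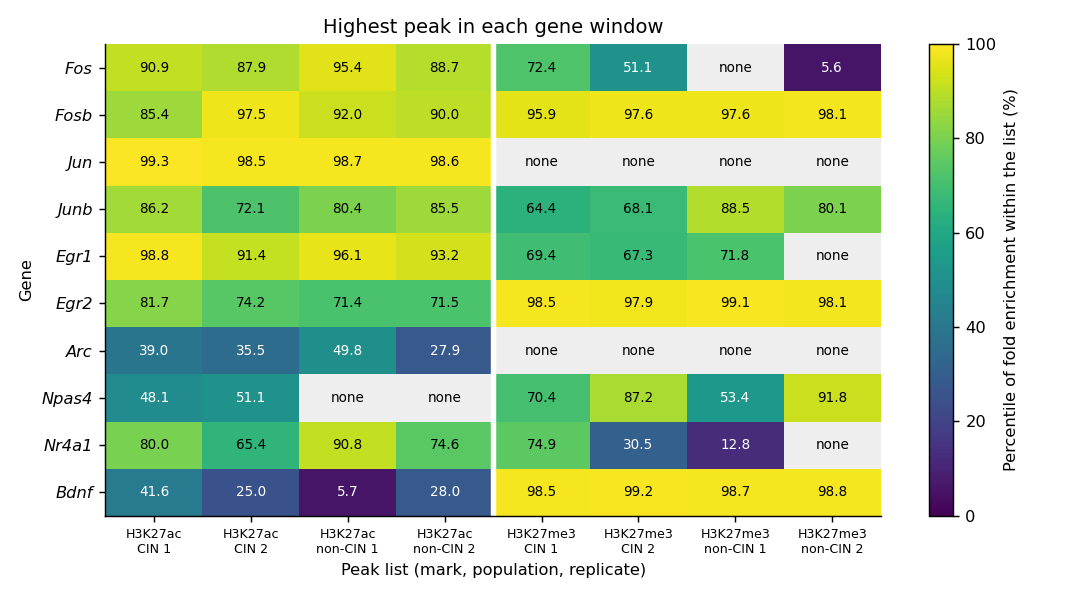
Percentile of fold enrichment, within its own list, of the highest peak in each gene window, for the 4 H3K27ac lists (left) and the 4 H3K27me3 lists (right), with grey cells where no peak was called. Jun is above 98 in each H3K27ac list, and Egr2 and Bdnf are above 97 in each H3K27me3 list.

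Fos, Fosb, Jun and Junb encode subunits of the dimeric transcription factor AP-1, the Jun proteins pairing with Fos proteins or with each other. In the values that follow, replicate 1 comes before replicate 2. Jun (ENSMUSG00000052684.4) had 5356 and 4652 bp of H3K27ac in CINs versus 4191 and 4910 bp in non-CINs. Its main peak reached from about 2 kb before the TSS over most of the gene, and the populations overlapped. The top percentile of Jun was 99.3 and 98.5 in CINs versus 98.7 and 98.6 in non-CINs, the highest of the 10 genes in each of the 4 lists. The non-coding gene Junos also starts in the Jun window, and ChIP-seq peaks carry no strand.

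Fos (ENSMUSG00000021250.13) had 4054 and 3245 bp of H3K27ac in CINs versus 4111 and 3584 bp in non-CINs, with top percentiles of 90.9 and 87.9 in CINs versus 95.4 and 88.7 in non-CINs. The peak began between -2393 and -2177 bp and ran over the printed promoter into the gene body in all 4 lists, and the populations overlapped. H3K27me3 at Fos was sparse, with 414 and 808 bp in CINs versus 0 and 304 bp in non-CINs. These short peaks lay inside the gene body, from 792 bp downstream of the TSS onwards, and in CINs they covered 4.02-fold more on average, and 2.01-fold more when non-CIN replicate 1, which had none, was left out. Their percentile was 72.4 and 51.1 in CINs and 5.59 in the 1 non-CIN list with a peak, where a low percentile means a weak call.

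Junb (ENSMUSG00000052837.6) had the highest mean share of its window under H3K27ac in both populations, although the share was higher at Jun in CIN replicate 1 and in non-CIN replicate 2. H3K27ac at Junb covered 5759 and 7110 bp in CINs versus 6233 and 4293 bp in non-CINs. The single block of 3 lists was split into 3 peaks in non-CIN replicate 2, and the populations overlapped. Junb was also the 1 gene of the 10 with both marks within 1 kb of the TSS in both replicates of CINs, against 2.76% of all protein-coding genes, and the 1 gene in non-CINs, against 2.31%. When any annotated start was used, Egr2 and Nr4a1 joined Junb in CINs and Egr2 joined it in non-CINs. H3K27me3 at Junb covered 1025 and 931 bp in CINs versus 1130 and 1468 bp in non-CINs, 1.33-fold more in non-CINs on average, a separation that was lost in a window with 20 kb added on both sides. The H3K27me3 peak lay over the gene body, starting between 308 and 493 bp downstream of the TSS. In both CIN lists and in non-CIN replicate 1 it fell wholly inside the H3K27ac peak, and in non-CIN replicate 2 408 of its 1468 bp did. Within 250 bp of the TSS none of the 10 genes had both marks in both replicates, and the overlap at Junb lay in its transcribed part. The 3′ end of Prdx2 also lies in the Junb window.

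Fosb (ENSMUSG00000003545.3) had 2686 and 2758 bp of H3K27ac in CINs versus 3037 and 2621 bp in non-CINs, in 1 peak over the TSS in each list. It had more H3K27me3 than H3K27ac, with 4001 and 5988 bp in CINs versus 4550 and 6100 bp in non-CINs. The marks alternated along the gene. In all 4 lists H3K27me3 lay upstream of the H3K27ac peak and again in the gene from about 3 kb downstream of the TSS, and 0 bp carried both marks in any list. The H3K27me3 peak at about 3 to 6 kb was the strongest, with percentiles of 95.9 and 97.6 in CINs versus 97.6 and 98.1 in non-CINs.

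**Figure D3:**
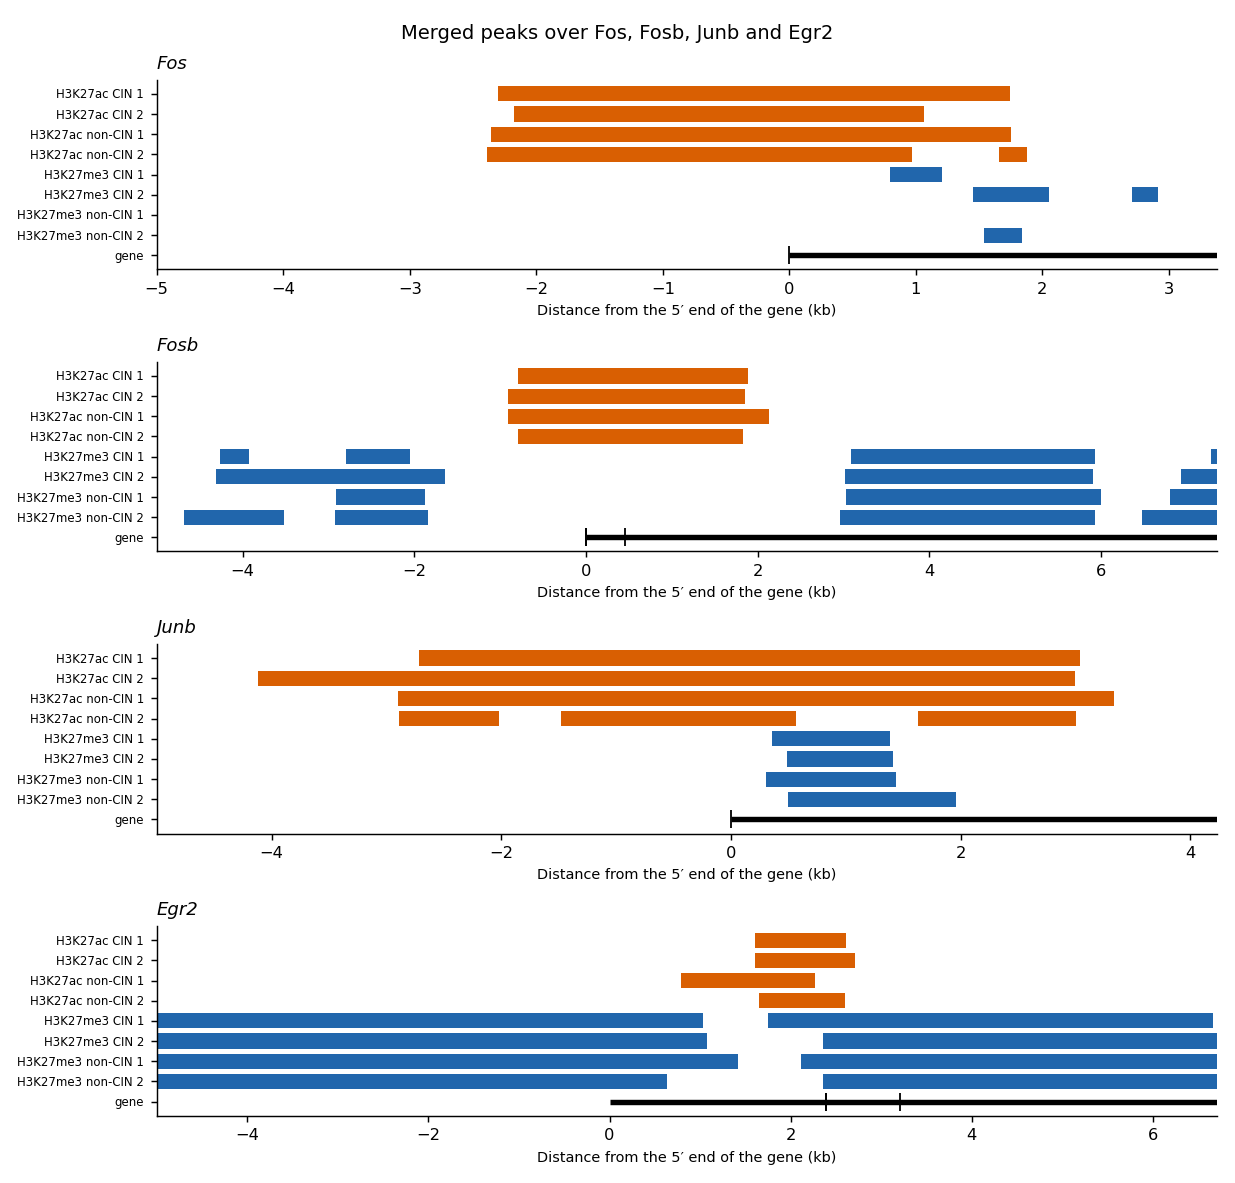
Merged H3K27ac peaks (orange) and H3K27me3 peaks (blue) in the windows of Fos, Fosb, Junb and Egr2, 1 row per list, against the distance in kb from the 5′ end of the gene (black line, with ticks at annotated starts). H3K27me3 flanks the H3K27ac peak of Fosb on both sides, overlaps that of Junb in all 4 lists, and is broken once at Egr2, where the H3K27ac peak lies partly in the gap and partly under H3K27me3.

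Egr1 and Egr2 encode zinc-finger transcription factors that bind GC-rich sites, and Egr2 is also known from hindbrain patterning and from myelination in Schwann cells. Egr2 (ENSMUSG00000037868.15) was a gene mainly under H3K27me3, with 10950 and 10432 bp in CINs versus 11019 and 9985 bp in non-CINs of a window of 11714 bp. The populations overlapped, at top percentiles of 97.9 to 99.1. H3K27me3 was interrupted once in each list, between 630 and 1418 bp downstream of the 5′ end of the gene at its first edge and between 1753 and 2360 bp at its second. H3K27ac lay partly in this gap, with 1007 and 1105 bp in CINs versus 1486 and 950 bp in non-CINs. The H3K27ac peak covered the start at 2394 bp, that of the printed promoter with the CArG box, in both CIN lists and in non-CIN replicate 2, and ended at 2274 bp in non-CIN replicate 1. Its percentile was 81.7 and 74.2 in CINs versus 71.4 and 71.5 in non-CINs, so both CIN values were higher while its coverage overlapped. The part of the H3K27ac peak that also carried H3K27me3 was 864 and 348 bp in CINs versus 791 and 237 bp in non-CINs. The 5′ end of the Egr2 gene record is not one of its 3 starts in the basic annotation, so by the 1 kb rule Egr2 had H3K27ac at the TSS in non-CIN replicate 1 alone, and it had the mark in all 4 lists when any annotated start was used.

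Nr4a1 (ENSMUSG00000023034.7) encodes an orphan nuclear receptor induced by many stimuli. It had 3120 and 2147 bp of H3K27ac in CINs versus 5507 and 3857 bp in non-CINs, 1.78-fold more in non-CINs on average. The call was lost without merging nearby peaks and after removal of peaks with a −log10 q under 4. The strongest peak lay over the internal start, 12577 bp downstream of the first one, at percentiles of 80.0 and 65.4 in CINs versus 90.8 and 74.6 in non-CINs. At the first start the percentiles were 75.6 and 45.8 in CINs versus 69.3 and 13.9 in non-CINs. Coverage found in non-CINs alone included peaks between the starts in replicate 1 and most of a 1245 bp peak downstream of the internal start in replicate 2. H3K27me3 was short, with 1081 and 439 bp in CINs versus 642 and 0 bp in non-CINs, and lay mostly just downstream of the internal start.

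Arc (ENSMUSG00000022602.14) encodes a postsynaptic protein that drives removal of AMPA receptors from the membrane. It had 1189 and 957 bp of H3K27ac in CINs versus 1163 and 919 bp in non-CINs, with no H3K27me3. The peak sat upstream of and over the TSS, apart from non-CIN replicate 2, where it ended at -251 bp. Its percentiles, 39.0 and 35.5 in CINs versus 49.8 and 27.9 in non-CINs, overlapped between the populations.

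Npas4 (ENSMUSG00000045903.9) encodes a neuronal transcription factor known for its selective response to calcium entry. It was the only one of the 10 genes with H3K27ac in its window in 1 population alone. H3K27ac covered 1151 and 210 bp in CINs versus 0 and 0 bp in non-CINs. The peak spanned the TSS in both CIN lists, from -526 to 624 bp in replicate 1 and from -126 to 83 bp in replicate 2, at percentiles of 48.1 and 51.1. H3K27me3 was present at Npas4 in every list, with 2098 and 3441 bp in CINs versus 2666 and 3591 bp in non-CINs, which overlapped. It lay upstream of the TSS and again over the 3′ end of the gene. In both non-CIN lists the upstream H3K27me3 reached to the TSS, ending at -16 and -17 bp. In CINs it ended at -1499 bp in replicate 1 and at 22 bp in replicate 2, where 149 of the 210 bp of H3K27ac also carried H3K27me3. The start of the non-coding gene AC124502.5 also lies in the window. Both CIN peaks kept their call when peaks with a −log10 q under 4 were removed.

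Bdnf (ENSMUSG00000048482.14) encodes brain-derived neurotrophic factor, a secreted ligand transcribed from many promoters, of which several respond to activity. It had the most H3K27me3 of the 10 genes in bp, with 32359 and 34520 bp in CINs versus 21063 and 29889 bp in non-CINs. That was 1.31-fold more in CINs on average, and 1.12-fold without non-CIN replicate 1. The top percentile was 98.5 and 99.2 in CINs versus 98.7 and 98.8 in non-CINs. The difference between the populations lay in how continuous the mark was. From about 8 kb downstream of the TSS to 27 kb, both CIN lists had 1 unbroken block, whereas non-CINs had 6 peaks in replicate 1 and 3 in replicate 2. Of its 9 annotated starts, 8 lay within 1 kb of H3K27me3 in all 4 lists, the printed promoter among them, and the last start, at 34683 bp, had no peak of either mark. H3K27ac was sparse, with 1264 and 225 bp in CINs versus 272 and 261 bp in non-CINs. In 3 lists it lay between 2523 and 3923 bp inside the H3K27me3 block, and in non-CIN replicate 2 it lay at 47989 to 48249 bp. It came within 1 kb of the start at 2332 bp in CIN replicate 1 and non-CIN replicate 1, but not in CIN replicate 2. The non-coding genes Gm20638 and Gm45346 also start in the window.

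**Figure D4:**
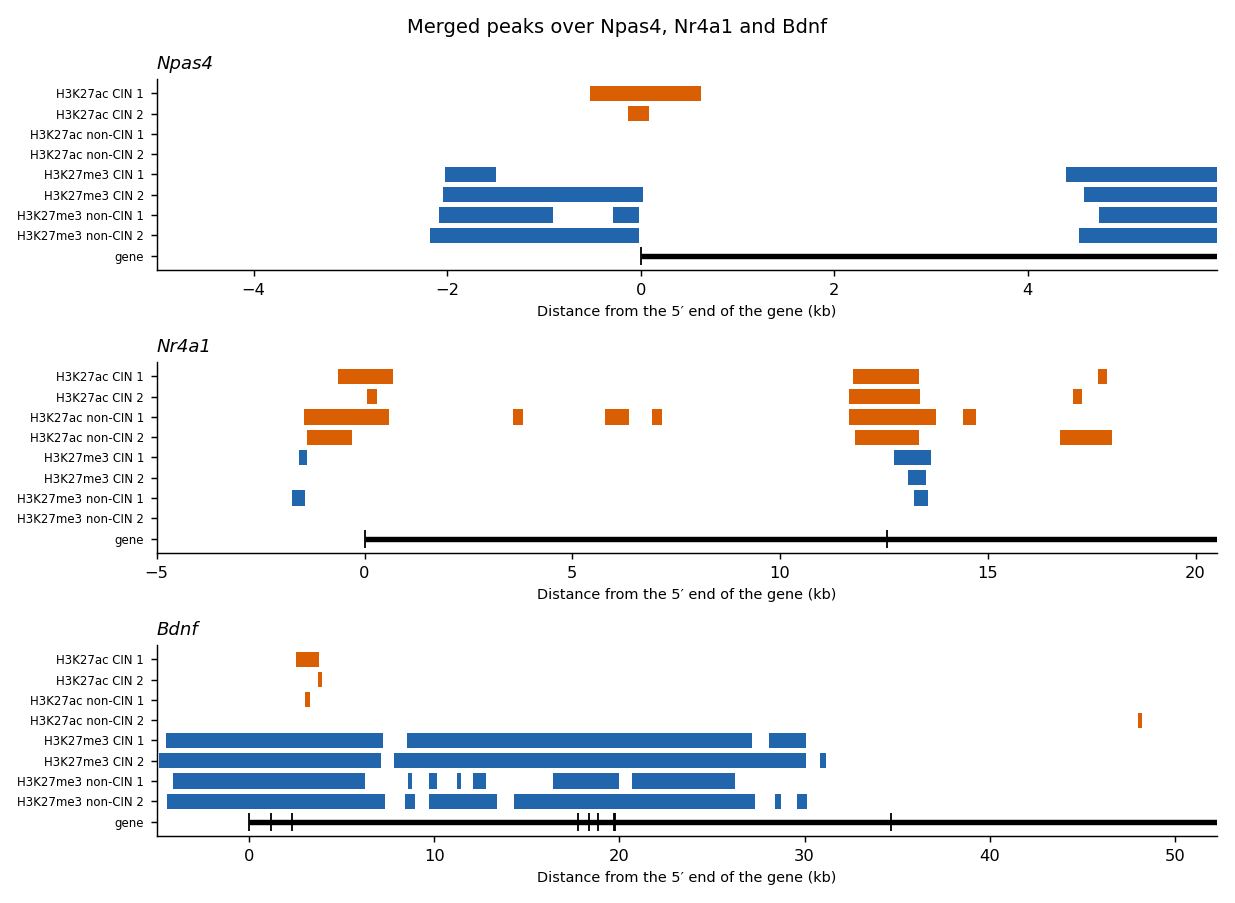
Merged H3K27ac peaks (orange) and H3K27me3 peaks (blue) in the windows of Npas4, Nr4a1 and Bdnf, 1 row per list, against the distance in kb from the 5′ end of the gene (black line, with ticks at annotated starts). H3K27ac crosses the Npas4 start in both CIN lists and in neither non-CIN list, and H3K27me3 over Bdnf is more broken up in non-CINs.

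Egr1 (ENSMUSG00000038418.7) had 2729 and 2615 bp of H3K27ac in CINs versus 4321 and 3820 bp in non-CINs, 1.52-fold more in non-CINs on average. The main peak lay over the TSS and the first part of the gene in all 4 lists, at percentiles of 98.8 and 91.4 in CINs versus 96.1 and 93.2 in non-CINs, which overlapped. The additional coverage in non-CINs came mostly from a second peak of 911 bp in replicate 1 and 972 bp in replicate 2, upstream of the promoter, where CINs had no peak. That second peak was weak, at percentiles of 3.98 and 25.3. H3K27me3 at Egr1 covered 1909 and 1737 bp in CINs versus 1539 and 0 bp in non-CINs, over the 3′ part of the gene. The astrocyte and microglial marker sums were higher in both non-CIN lists too, as given above. Gene by gene, 2 of the 3 astrocyte and radial glia markers (Aldh1l1 and Slc1a3) had more H3K27ac coverage in both non-CIN lists. So did 1 of the 3 microglial markers (Cx3cr1), and Gfap, P2ry12 and Csf1r overlapped. Cx3cr1 had no H3K27ac peak within 1 kb of an annotated start in any list. Its top percentile was higher in CINs, at 88.4 and 91.2 versus 81.8 and 80.8 in non-CINs. The part of these markers in the values of Egr1 and Nr4a1 was not tested.

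Within 50 kb of the 10 genes, CIN replicates 1 and 2 had 65 and 47 merged H3K27ac peaks, and non-CIN replicates 1 and 2 had 59 and 56. Of these, 14 and 5 in CINs had no peak of the other population at the same place in the same replicate, and 9 and 11 in non-CINs. That is 21.5% and 10.6% of the CIN peaks near these genes, beside 31.8% and 23.5% of all peaks in those lists. For non-CINs it is 15.3% and 19.6%, beside 26.9% and 24.4%. The shares near the 10 genes were thus lower than those of the whole list in each of the 4 lists. The whole lists are not limited to peaks near genes, and the share near other genes was not computed.

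Few of these recurred. CIN-only regions, found in both CIN replicates and in neither matched non-CIN list, numbered 3 near the 10 genes, 1 each at Npas4, Junb and Egr1, and 4181 on the assembled chromosomes. At least 1 such region lay within 50 kb of 16.0% of all protein-coding genes. Non-CIN-only regions numbered 2, 1 each at Egr1 and Bdnf, of 2775 on those chromosomes, and 15.3% of all protein-coding genes had at least 1. With 3 and 2 of 10 genes, the number of genes is too small to set these shares apart from the background.

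The Npas4 region, chr19:4990233-4990442 (mm10), was 210 bp long and crossed the TSS. The Junb region, chr8:84937015-84937214, was 200 bp long, 41603 bp downstream of the Junb TSS, in an intron of Mast1 and 244 bp from the start of that gene, so it lies by another promoter. Its percentiles were 67.9 and 7.61, and it was lost when peaks with a −log10 q under 4 were removed. With a reciprocal overlap of 50% required, neither the Npas4 nor the Junb region was found, and the 2 genes with a CIN-only region were Jun and Egr1. The CIN-only region by Egr1, chr18:34900296-34900551, was 256 bp long, intergenic, 40601 bp downstream of the Egr1 TSS and 31583 bp from the nearest protein-coding start, that of Etf1. It had percentiles of 86.7 and 46.7, and no H3K27me3 peak overlapped it in any list. The non-CIN-only regions were chr18:34855903-34856209, 307 bp centred at -3767 bp from Egr1, and chr2:109743408-109743726, 319 bp centred 68867 bp downstream of the first Bdnf start and beyond the gene end. Their percentiles were 3.98 and 25.3 at Egr1 and 42.8 and 20.1 at Bdnf, and neither was left when peaks with a −log10 q under 4 were removed.

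The same measure was applied to 39 further activity genes. Of these, 36 had an H3K27ac peak, 5 had higher coverage in both CIN lists, against 17.8% of all genes with a peak, and 5 in both non-CIN lists, against 18.8%. With the replicate block the numbers were 9, against 28.9%, and 13, against 29.7%. The median difference in share of the window covered, CINs minus non-CINs, was -0.16 percentage points over these genes, -0.24 over the 10 genes and 0.02 over all genes with a peak. Pcsk1, a protease that processes neuropeptide precursors, had 2281 and 1240 bp of H3K27ac in CINs versus 0 and 0 bp in non-CINs. Scg2, a secretory granule protein, had 368 and 249 bp in CINs versus 0 and 0 bp in non-CINs. These genes, like Npas4, had H3K27ac in CINs alone, at top percentiles of 80.8 and 37.9 for Pcsk1 and 20.2 and 17.5 for Scg2. The phosphatase gene Dusp5 (1.65-fold) and the kinase gene Sik1 (1.40-fold) had more in CINs. With peaks under a −log10 q of 4 removed, 1 of the 39 genes was higher in CINs, down from 5. In the other direction, Csrnp1, a nuclear protein induced by growth signals, had 2819 and 2683 bp in CINs versus 4836 and 4467 bp in non-CINs, 1.69-fold more in non-CINs. Gadd45b, a stress-response gene, followed at 1.30-fold, the circadian gene Per1 at 1.19-fold and Ccn1, a secreted matrix protein, at 1.06-fold.

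Of 16 genes that signal to or bind activity genes, all had an H3K27ac peak, 4 had higher coverage in CINs, against 17.8% of all genes with a peak, and 3 in non-CINs, against 18.8%. With the replicate block the numbers were 5, against 28.9%, and 8, against 29.7%. Camk4, a calcium-dependent kinase that phosphorylates CREB, had 3170 and 1791 bp of H3K27ac in CINs versus 0 and 0 bp in non-CINs. Its top percentiles in CINs were 65.3 and 21.8. Grin1, the obligate NMDA receptor subunit, had 1321 and 617 bp in CINs versus 402 and 0 bp in non-CINs. The calcium channel gene Cacna1c had 31379 and 14242 bp in CINs versus 10353 and 9364 bp in non-CINs, 2.31-fold more in CINs on average and 1.44-fold without CIN replicate 1. The transcription factor gene Mef2c was higher in CINs as well (1.29-fold). Those higher in non-CINs were the transcription factor genes Creb1 (1.24-fold), Srf (1.21-fold) and Atf1 (1.20-fold). With peaks under a −log10 q of 4 removed, 1 gene was higher in CINs in each of these lists of 39 and 16.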

How the data were processed

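What was measured were broad peaks of H3K27ac and H3K27me3 in 2 CIN and 2 non-CIN replicates of each mark. Alignment by the authors was to mm10, with BWA mem 0.7.15, and MACS2 (version 2.2.7 in the submitters' processing notes, an earlier version in the study's methods) then called broad peaks per replicate, with the matched input as control. The deposited fold enrichment is a ratio of ChIP to input signal, and the −log10 q value is that of the authors' peak caller, as deposited. Neither is a read count, and depth was not used. Fold enrichment was used only as a percentile among the peaks of its own list, and −log10 q only for an alternative limit of 4.

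For covered bp, neighbouring peaks of a list with gaps of up to 500 bp were joined. Genes and starts came from GENCODE vM21 (where Cyr61 is named Ccn1), promoter sequences from RefSeq GRCm38.p6. A gene counted as higher in a population when both of its values exceeded both of the other. A region counted as found in one population when it lay in both of its replicates with no overlap to the other population in the same replicate, as the study compared populations within a replicate. The interval code (Python 3.11.15, NumPy 2.4.6) was tested on simulated data, where 25 of 25 operations equalled bedtools 2.31.1 and 40 of 40 planted genes were recovered. The labels give lists a replicate number without saying that CIN and non-CIN lists of a number share an experiment, but the study compared the populations within each replicate, and deviations of same-numbered lists from the population means correlated at 0.314 for H3K27ac (over 14672 genes) and 0.722 for H3K27me3 (over 8941 genes). The 10 genes and the lists of 39 and 16 genes were chosen with earlier results of these data known. All 10 genes were named, and, from the other lists, among genes whose H3K27ac coverage did not overlap between the populations, the up to 4 in each direction whose ratio of mean coverage was farthest from 1. Marker lists were GABAergic, projection neuron, astrocyte and radial glia, oligodendrocyte lineage, microglial and endothelial genes.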

Additional observations from a re-analysis of the deposited data

How the results depend on the processing

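Of 146 values recomputed under other settings for 18 counts, 87 stayed within 1.5 times the reported count. With the replicate block, H3K27ac was higher in CINs for 2 of the 10 genes, and its top percentile higher in non-CINs for 2. H3K27me3 was higher in non-CINs for 3. The block gave 9 further activity genes in CINs, 13 in non-CINs and 8 regulators in non-CINs, and moved no other count by over 1.5 times. In windows with 20 kb added on both sides, 2 genes had more H3K27ac in CINs, 4 a higher H3K27ac percentile in CINs and 0 more H3K27me3 in non-CINs. From 1 kb upstream, 2 had more H3K27me3 in non-CINs. With a −log10 q of at least 4, more H3K27ac was found in non-CINs for 1 of the 10 genes (Egr1) and in CINs for 1 further activity gene and 1 regulator. The H3K27ac percentile was then higher in non-CINs for 1, the H3K27me3 percentile in CINs for 0, and non-CIN-only regions numbered 0. Without merging, 1 gene had more H3K27ac in non-CINs. With each list limited to the length of the shortest, 5 regulators had more H3K27ac in non-CINs, 2 genes a higher H3K27ac percentile in non-CINs, 5 more H3K27me3 in CINs, 1 a higher H3K27me3 percentile in non-CINs, and non-CIN-only regions numbered 1. That number was also 1 with a reciprocal overlap of 50% and within 50 kb of the TSS alone. Within 5 kb of the TSS, 5 genes had H3K27me3 in all lists, and 7 in CINs and 3 in non-CINs had both marks. Within 250 bp 0 and 0 had both, and at any annotated TSS 3 and 2. The cause of these shifts was not tested beyond what each setting changes.

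Leaving out a replicate leaves 1 list against 1, so fewer genes overlap. Without either replicate, members with more H3K27ac numbered 4 to 5 in CINs versus 5 to 6 in non-CINs, and those with a higher H3K27ac percentile 4 to 6 in CINs versus 4 to 6 in non-CINs. H3K27me3 was higher for 4 to 5 in CINs versus 3 to 4 in non-CINs, and its percentile for 3 to 4 in CINs versus 4 to 5 in non-CINs. Further activity genes numbered 16 to 16 in CINs versus 18 to 20 in non-CINs, and regulators 6 to 7 in CINs versus 9 to 10 in non-CINs. Both marks lay at the TSS of 2 to 2 genes in CINs versus 1 to 2 in non-CINs. CIN-only regions numbered 5 to 14 and non-CIN-only regions 9 to 11.

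The ratios with 1 list left out were chosen after seeing the data. Depth was not used, so a gene without the mark and a gene under the limit of the peak caller cannot be told apart. Coverage counts how much was called, and lists of the same mark differ in total coverage.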

Other observations

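H3K27me3 at the 39 further activity genes was not described above. Of these, 29 had an H3K27me3 peak in at least 1 list, and coverage was higher in both CIN lists for 1 and in both non-CIN lists for 5, against 7.48% and 11.2% of all genes with such a peak. The genes are named after their values were seen. Ccn1 had 614 and 3041 bp of H3K27me3 in CINs versus 0 and 0 bp in non-CINs. Sik1 had 0 and 0 bp in CINs versus 1862 and 1048 bp in non-CINs, and was among the genes with more H3K27ac in CINs. Pcsk1, which had H3K27ac in CINs alone, had 0 and 262 bp of H3K27me3 in CINs versus 526 and 2170 bp in non-CINs. Nfil3, a transcription factor gene, had 810 and 1355 bp in CINs versus 4244 and 5823 bp in non-CINs. Dusp1 and Nptx2 also had more in non-CINs, but at Dusp1 no H3K27me3 peak lay within 1 kb of an annotated start in any list. Both Sik1 and Pcsk1 thus had more H3K27ac in CINs and more H3K27me3 in non-CINs. With peaks under a −log10 q of 4 removed, 1 of the 39 genes had more H3K27ac in CINs, so Sik1 and Pcsk1 did not both keep that call.

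Among the 16 regulators, 9 had an H3K27me3 peak. Of these, 0 were higher in CINs, against 7.48% of all genes with such a peak, and 1 was higher in non-CINs, against 11.2%. That gene was Ntrk2, which encodes the BDNF receptor TrkB, at 0 and 0 bp in CINs versus 1604 and 403 bp in non-CINs. Its H3K27ac covered 30178 and 21377 bp in CINs versus 29935 and 31048 bp in non-CINs, which overlapped. Grin1 carried 9359 to 13897 bp of H3K27me3 across the 4 lists, overlapping between the populations, beside its short H3K27ac peaks. Of the marker lists, the oligodendrocyte lineage genes were split, Olig2 having more H3K27ac in non-CINs and Pdgfra in CINs, and of the 3 endothelial markers Cldn5 had no H3K27ac peak and Pecam1 and Flt1 overlapped.

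A start that only RefSeq lists for Bdnf, at chr2:109722921, lay within the H3K27ac peak of non-CIN replicate 2 at 47989 to 48249 bp from the first start. No other list had a peak there.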
